A study of Bos taurus and Felis catus with 14 samples.

Results

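The mir-34 and mir-449 microRNAs form one family by the seed of their 5p products. Their loci were taken by name from the deposited predictions for cow and cat. All precursors named mir-34 or mir-449 were kept, with any letter, copy number or suffix, and names that mark an antisense locus were left out, although none of that kind occurred in these families. This gave 8 precursors of 1305 in the 2 species together, 4 of 810 bovine and 4 of 495 feline loci. The bovine loci were bta-mir-34a, bta-mir-34b, bta-mir-34c and bta-mir-449a, and the feline loci were fca-mir-34a, fca-mir-34c, fca-mir-449 and another mir-449 hairpin beside it, whose deposited name adds the suffix that marks a homolog outside the known names. It is called the suffixed mir-449 locus of the cat in what follows.

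The bovine set was built by the authors from 10 small RNA libraries of Angus steers, 1 for each tissue: retina, iris and optic nerve of the eye, dental pulp and oral papillae of the mouth, bone marrow, submandibular lymph node, penis, brain stem and hoof corium. Of the 3 steers, the first gave 8 tissues, while brain stem and corium each came from another animal. The feline set was built from 4 libraries, 2 of haired skin and 2 of skeletal muscle, from 3 neutered male domestic short hair cats, one of which gave both tissues. The feline tissues were described as normal and no treatment was named for either species. The loci of a species were called from all its libraries together. The deposited sets of loci hold no read numbers and no value per tissue, and expression per sample is not analysed here. The depth behind each call is therefore unknown from these sets, and a locus that was not called cannot be told apart from one that was not expressed in these tissues.

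A microRNA hairpin is cut first by Drosha and then by Dicer, which leaves a duplex of a 5p and a 3p product, named after their arms. Bases 2 to 8 of a product, its seed, pair with target messenger RNAs, so products with the same seed can share targets. In mammals, mir-34a is transcribed from its own gene and is induced by the tumor suppressor p53. mir-34b and mir-34c are made from a shared transcript, and the mir-449 hairpins lie in an intron of CDC20B. These microRNAs restrain the cell cycle, and mir-34b, mir-34c and mir-449 are known for their abundance in multiciliated epithelia of airway and oviduct and in testis, none of which is among the tissues sequenced.

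Bovine and feline sequences of the members were not used here. To show what unites the family, the mature sequences of the human counterparts were taken from the supplementary counts table of the study, whose rows for the products below hold reads in established human cell lines. They are given 5′ to 3′ in DNA letters, with the seed in capitals, first the 5p products.
hsa-mir-34a-5p: tGGCAGTGtcttagctggttgtt
hsa-mir-34b-5p: aGGCAGTGtcattagctgattgt
hsa-mir-34c-5p: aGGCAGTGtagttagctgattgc
The 3p products of the same hairpins follow.
hsa-mir-34a-3p: cAATCAGCaagtatactgccct
hsa-mir-34b-3p: aATCACTAactccactgccatc
hsa-mir-34c-3p: aATCACTAaccacacggccagg
With the product starts given by the study, all 3 human 5p products carried the seed GGCAGTG. Seeds and base-by-base matches on both arms rest on these starts, and other starts were not compared. Compared base by base from the start, hsa-mir-34b-5p and hsa-mir-34c-5p were identical at 20 of 23 positions, and hsa-mir-34a-5p matched hsa-mir-34b-5p at 13 and hsa-mir-34c-5p at 11. On the 3p arm, with these starts, the seed was shared by mir-34b and mir-34c alone, which matched at 17 of 22 positions. hsa-mir-34a-3p matched either of them at 3. The first base of hsa-mir-34a-3p precedes a run of bases that also opens both other 3p products. The count of 3 and the unshared seed thus depend on the start and do not show that the 3p products are unrelated. No human mir-449 sequence was used here. The authors called a product homologous where it matched a known microRNA and had the same seed, so a seed that the suffixed mir-449 locus shares with its family follows from its name and is no result.

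Each species had 4 loci, but the split between the branches differed. The cow had 3 mir-34 loci and 1 mir-449 locus, all with plain names. The cat had 2 of each, 3 with plain names and the suffixed mir-449 locus as the further member. A locus named mir-34b was called in the cow alone, and a neighbouring pair of mir-449 hairpins in the cat alone. With 1 call set for each species, from different tissues, this difference in calls was not tested, and species, tissue and depth cannot be told apart.

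mir-34a had a single locus in each species. bta-mir-34a lies on chromosome 16 from 45197410 to 45197478 on the plus strand, and fca-mir-34a lies on NC_018730.2 from 6385542 to 6385610 on the minus strand. Positions are those of the deposited sets, for which the sources used here name no genome build, and feline sequences carry the names of the set. Both precursors were 69 nt long. The bovine 5p product spans 45197411 to 45197432 and the 3p product 45197454 to 45197475. The feline 5p product spans 6385588 to 6385609 and the 3p product 6385545 to 6385566. Counted along the hairpin from its 5′ end, both species had a 22 nt 5p product at positions 2 to 23, a 22 nt 3p product at positions 45 to 66, 21 nt between them and 3 nt after the 3p product. No length or position differed between cow and cat at this locus.

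mir-34c, a member of the ciliated-cell branch, was also called in both species. bta-mir-34c lies on chromosome 15 from 22135436 to 22135495 and fca-mir-34c on NC_018732.2 from 9694834 to 9694893, both on the plus strand and both 60 nt long. The bovine products span 22135438 to 22135460 on the 5p arm and 22135471 to 22135492 on the 3p arm, and the feline products 9694836 to 9694858 and 9694869 to 9694890. In each hairpin the 5p product of 23 nt took positions 3 to 25 and the 3p product of 22 nt took positions 36 to 57, with 10 nt between them. As with mir-34a, cow and cat were equal in every length and position.

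**Figure D1:**
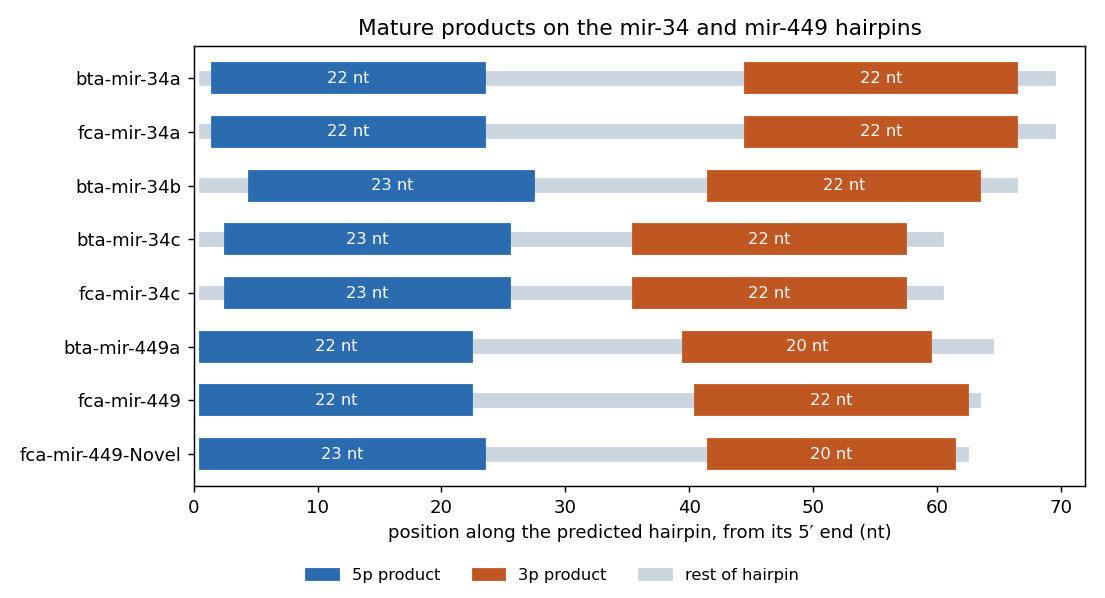
Positions of the mature products on the 8 predicted hairpins, with distance from the 5′ end of the hairpin in nt on the horizontal axis and 1 hairpin in each row. Blue boxes are 5p products, orange boxes are 3p products, with their lengths written inside, and grey is the rest of the hairpin. The bovine and feline rows of mir-34a coincide, as do those of mir-34c, while the mir-449 rows differ in product lengths and spacing.

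How often 2 species give the same hairpin layout was read from all microRNAs with one plain name in cow and cat and products from both arms in both. Of 139 such pairs, 44 (31.7%) were equal in all 6 measures: precursor length, nucleotides before the 5p product, 5p length, nucleotides between the products, 3p length and nucleotides after the 3p product. mir-34a and mir-34c were the pairs of this family in that comparison, and both were among the 44. Single measures were equal more often, precursor length in 58 pairs (41.7%), 5p length in 108 (77.7%) and 3p length in 106 (76.3%). The distance from the start of the 5p product to the start of the 3p product was equal in 110 pairs (79.1%). A shared name does not show that the loci are orthologs, and the predicted span comes from the same program in both species, so these shares describe the lists.

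bta-mir-34b, the partner of mir-34c on the shared transcript, lies on the plus strand of chromosome 15 from 22134734 to 22134799. The precursor of 66 nt gave a 23 nt 5p product from 22134738 to 22134760 and a 22 nt 3p product from 22134775 to 22134796. The product lengths were those of mir-34c, but 14 nt separated them, against 10 nt in mir-34c, and 4 nt preceded the 5p product, against 2 nt. mir-34b and mir-34c thus matched in the lengths of both products and differed in the spacing between them.

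The bovine mir-34b and mir-34c precursors formed a cluster of 2 with no other locus, from 22134734 to 22135495, a span of 762 nt. Clusters were formed from the deposited loci alone, with neighbours at most 10 kb apart. The authors used the same distance but also placed annotated precursors that were not called, so a member that is single here may have an annotated neighbour. mir-34b came first in the direction of the strand and 636 nt separated the precursors. Among the 126 gaps between neighbours on the same strand inside bovine clusters, 67 were shorter and 58 were longer, with a median of 469 nt. The spacing of this pair was thus near the middle of the bovine gaps. Gene names and their order were looked up in RefSeq for the bovine assembly ARS-UCD2.0, whose coordinates are not those of the set. There, MIR34B and MIR34C both lie inside the spans of BTG4, an antiproliferative gene of oocytes, and of HOATZ, a cilia and flagella gene. The nearest protein-coding genes outside these spans were POU2AF1, a B cell coactivator gene, and LAYN, a hyaluronan receptor gene. MIR34A lies inside the span of GPR157, a G protein-coupled receptor gene, with SPSB1 as the nearest protein-coding gene on the lower side and LOC107131287 and then CA6, a secreted carbonic anhydrase gene, on the higher side. The table gives no strand.

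The feline mir-34c locus stood alone. No locus of any name preceded it on its sequence and the nearest one, fca-Novel56, lay 7172852 nt downstream on the other strand. Of the 487 feline loci with another locus on the same sequence, 49 (10.1%) were farther from their nearest neighbour, and the median distance was 288847 nt. The bovine pair was the first on its chromosome as well, and the next locus after bta-mir-34c was bta-mir-2284-Novel11, 7600055 nt downstream, a member of a ruminant family. The map of neighbouring hairpins shows the empty stretch in the cat beside the bovine pair.

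**Figure D2:**
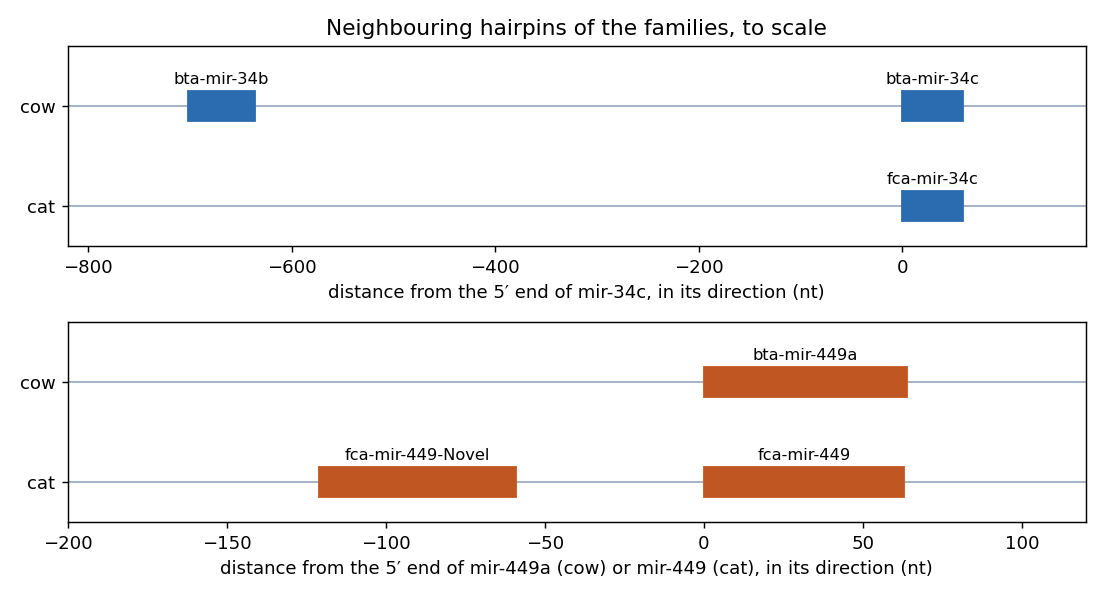
Maps of the neighbouring family hairpins in cow and cat, to scale, aligned at mir-34c in the upper panel and at bta-mir-449a and fca-mir-449 in the lower panel. The horizontal axis is the distance in nt in the direction of the strand, with 0 at the 5′ end of the aligned hairpin, and boxes are precursors (blue mir-34, orange mir-449). The bovine mir-34b lies 636 nt before mir-34c, and the suffixed mir-449 locus, shown by its deposited name, lies 59 nt before fca-mir-449.

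In the mir-449 branch no feline hairpin had the layout of the bovine one, but no plain name was the same in both species. The maps and the gaps to neighbours set bta-mir-449a beside fca-mir-449, a choice that does not show that they correspond. bta-mir-449a lies on the plus strand of chromosome 20 from 23967405 to 23967468. The precursor of 64 nt gave a 22 nt 5p product from 23967405 to 23967426 and a 20 nt 3p product from 23967444 to 23967463, with 17 nt between them and 5 nt after the 3p product. In the RefSeq table MIR449A lies inside CDC20B, a gene of multiciliated cells, as do MIR449B and MIR449C. The order along the chromosome was CCNO, MCIDAS, MIR449C, MIR449B, MIR449A and GPX8, with CDC20B starting after MCIDAS. CCNO and MCIDAS drive the formation of multiple cilia, and GPX8 is a peroxidase of the endoplasmic reticulum. RefSeq names 7 bovine genes of the family, 3 MIR34 and 4 MIR449 genes. All 3 MIR34 genes and MIR449A had a locus in the deposited bovine set. The remaining MIR449B and MIR449C in CDC20B, and MIR449D in NAV2 on chromosome 29, had none, so bta-mir-449a counts as single among the called loci although annotated hairpins of its family share its host gene.

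The feline loci lie side by side on the minus strand of NC_018723.2. The suffixed locus, from 123907229 to 123907290, comes first in the direction of the strand, and fca-mir-449, from 123907107 to 123907169, follows 59 nt later. fca-mir-449 was 63 nt long, with a 22 nt 5p product from 123907148 to 123907169 and a 22 nt 3p product from 123907108 to 123907129. The suffixed mir-449 precursor was 62 nt long, with a 23 nt 5p product from 123907268 to 123907290 and a 20 nt 3p product from 123907230 to 123907249. The products were 18 nt apart in both hairpins, and 1 nt remained after each 3p product. The 2 hairpins of the cat differed from each other in the lengths of both products and had the same spacing.

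The feline pair made a cluster of 2 that spans 184 nt. Among 87 gaps between neighbours on the same strand inside feline clusters, with a median of 478 nt, 2 were shorter than 59 nt, 1 other was equal and 83 were longer. The shorter ones were fca-mir-19b to fca-mir-92a (38 nt) and fca-mir-20a to fca-mir-19b (51 nt), and the equal one was fca-mir-18a to fca-mir-19-Novel3. These belong to the mir-17 to mir-92 group and were named after their values were seen. The gap between the mir-449 hairpins of the cat was thus among the shortest of the feline gaps. The other gaps were picked for being no longer than 59 nt, so their closeness to it follows from that choice.

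None of the feline mir-449 hairpins had the bovine layout. Against bta-mir-449a, fca-mir-449 had the same 5p length and start, 1 nt more between the products and a 3p product longer by 2 nt. The suffixed locus had the same 3p length as bta-mir-449a, a 5p product longer by 1 nt and 1 nt more between the products. In all 3 hairpins the 5p product began at the first base of the precursor, which was not so at any mir-34 hairpin. This layout was found at 138 of 587 bovine loci with both arms (23.5%) and at 89 of 325 feline ones (27.4%). With 20 nt, the 3p products of bta-mir-449a and of the suffixed feline locus were the shortest of the 16 products of the family, of which the others had 22 or 23 nt. The names do not settle which feline hairpin corresponds to bta-mir-449a, and without sequences this was not analysed here.

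All 8 hairpins gave a product from each arm. Over the whole sets this held for 587 of 810 bovine loci (72.5%, 95% exact Clopper-Pearson interval 69.3 to 75.5%) and 325 of 495 feline loci (65.7%, interval 61.3 to 69.8%). Among loci whose name holds a family number, a restriction chosen after the data were seen, the shares were 81.5% (409 of 502, interval 77.8 to 84.8%) and 81.6% (239 of 293, interval 76.6 to 85.8%). The intervals cover counting error only. In clusters were 2 of the 4 members in either species, beside 29% of all bovine and 33.3% of all feline loci. Among loci with a family number the shares in clusters were 38.2% (192 of 502) and 48.1% (141 of 293). With 4 members in each species, neither count was tested against these shares.

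The spacing of the product starts separated the members. The distance from the first base of the 5p product to the first base of the 3p product, which fixes where the 3p seed begins relative to the 5p seed, was 33 nt for mir-34c in both species. It was 37 nt for bta-mir-34b, 39 nt for bta-mir-449a, 40 nt for fca-mir-449, 41 nt for the suffixed mir-449 locus and 43 nt for mir-34a in both species. mir-34c and mir-34a were thus the ends of the family range, with mir-34b and the mir-449 hairpins between them. The median over all loci with both arms was 38 nt in cow and in cat. mir-34c lay near the short end, with 32 of 587 bovine loci (5.45%) and 19 of 325 feline loci (5.85%) shorter. mir-34a lay towards the long end, with 63 bovine (10.7%) and 37 feline loci (11.4%) longer.

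**Figure D3:**
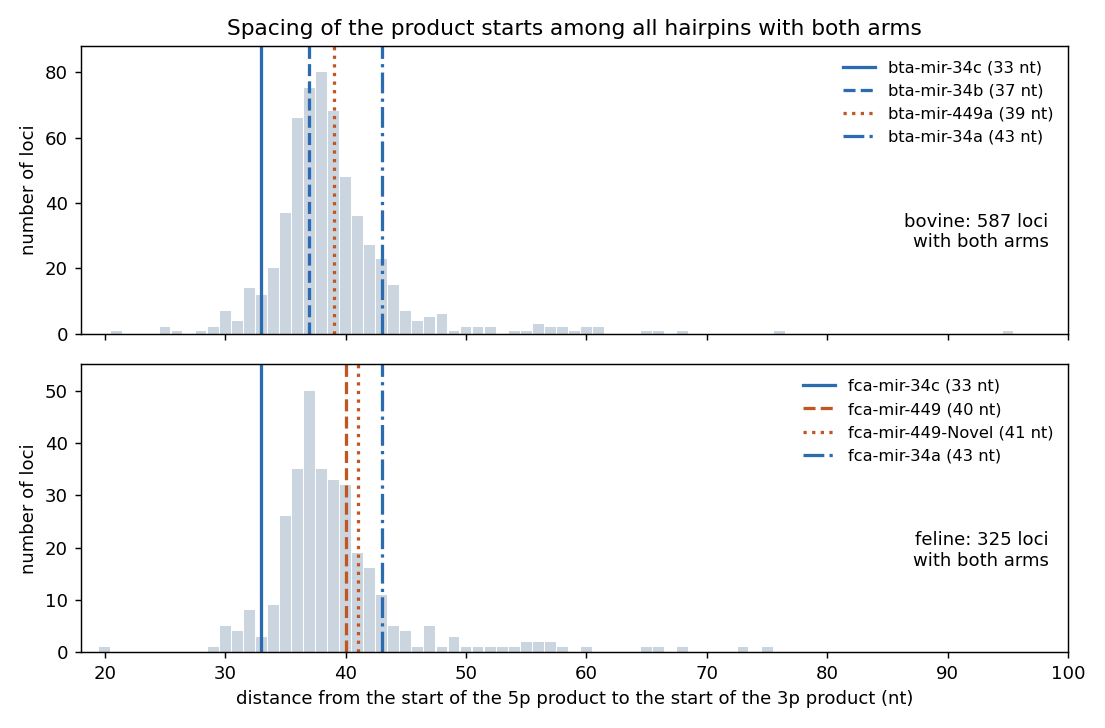
Number of loci (vertical axis) by distance in nt from the start of the 5p product to the start of the 3p product (horizontal axis), for the 587 bovine and 325 feline loci with both arms (grey bars). Lines mark the family members, blue for mir-34 and orange for mir-449. mir-34c at 33 nt and mir-34a at 43 nt take the same places in both species, on either side of the medians of 38 nt.

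Precursor lengths of 60 to 69 nt, with 60 nt for mir-34c and 69 nt for mir-34a, enclosed the medians of all loci with both arms, 66 nt in cow and 65 nt in cat. The stretch between the products, which holds the hairpin loop, ranged from 10 nt in mir-34c to 21 nt in mir-34a, with a median of 16 nt over all such loci of either species. It was shorter than that of mir-34c at 17 bovine (2.90%) and 12 feline loci (3.69%). Product lengths varied less, with 22 or 23 nt on the 5p arm and 20 or 22 nt on the 3p arm, and the median over all loci with both arms was 22 nt for either product.

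Other microRNAs around mir-34a and mir-449 lay on the same side and strand in cow and cat. This comparison was chosen after the neighbours had been seen and takes all microRNAs with the same plain name on the sequence of a member in both species. Downstream of mir-34a and on the other strand lay mir-429, mir-200a and mir-200b, microRNAs of epithelia, in this order. The gap to mir-429 was 7322607 nt in the cow and 6106738 nt in the cat. Between bta-mir-34a and that group stood other loci, the nearest of them bta-Novel168 at 563368 nt on the downstream side, while bta-Novel164 lay 103053 nt upstream. Nearest to fca-mir-34a were fca-Novel12, 2732912 nt upstream, and fca-mir-551a, 4383068 nt downstream.

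mir-34c had mir-125b-1, let-7a-2 and mir-100 downstream on the other strand in both species, at 11163328, 11212071 and 11217903 nt in the cow and 9744143, 9791240 and 9797033 nt in the cat. A further 5 microRNAs of the same name lay downstream on the sequence in both, the nearest of them mir-139 at 30.82 Mb in the cow and mir-326 at 47.34 Mb in the cat. Of all 8, the strand relative to mir-34c was the same at 6, and mir-139 and mir-326 were the exceptions. As nothing was called upstream of the mir-34b or mir-34c loci, their side could not differ.

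On the mir-449 side the shared neighbour was mir-582. bta-mir-582 (chromosome 20, 19588121 to 19588185) and fca-mir-582 (NC_018723.2, 127995269 to 127995335) lie upstream of mir-449 and on its strand. In RefSeq, bovine MIR582 lies inside PDE4D, a phosphodiesterase gene. The gap was 4379219 nt from bta-mir-582 to bta-mir-449a and 4088099 nt from fca-mir-582 to fca-mir-449. A single locus stood between them in each species, bta-mir-2284-Novel24 in the cow, 1493044 nt before bta-mir-449a, and the suffixed mir-449 locus in the cat. The other shared name, mir-218-2, lay upstream on the other strand in both, at 23523022 and 56895685 nt. On the downstream side the nearest loci had no family name, bta-Novel35 at 12693714 nt and fca-Novel113 at 4482976 nt from fca-mir-449.

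**Figure D4:**
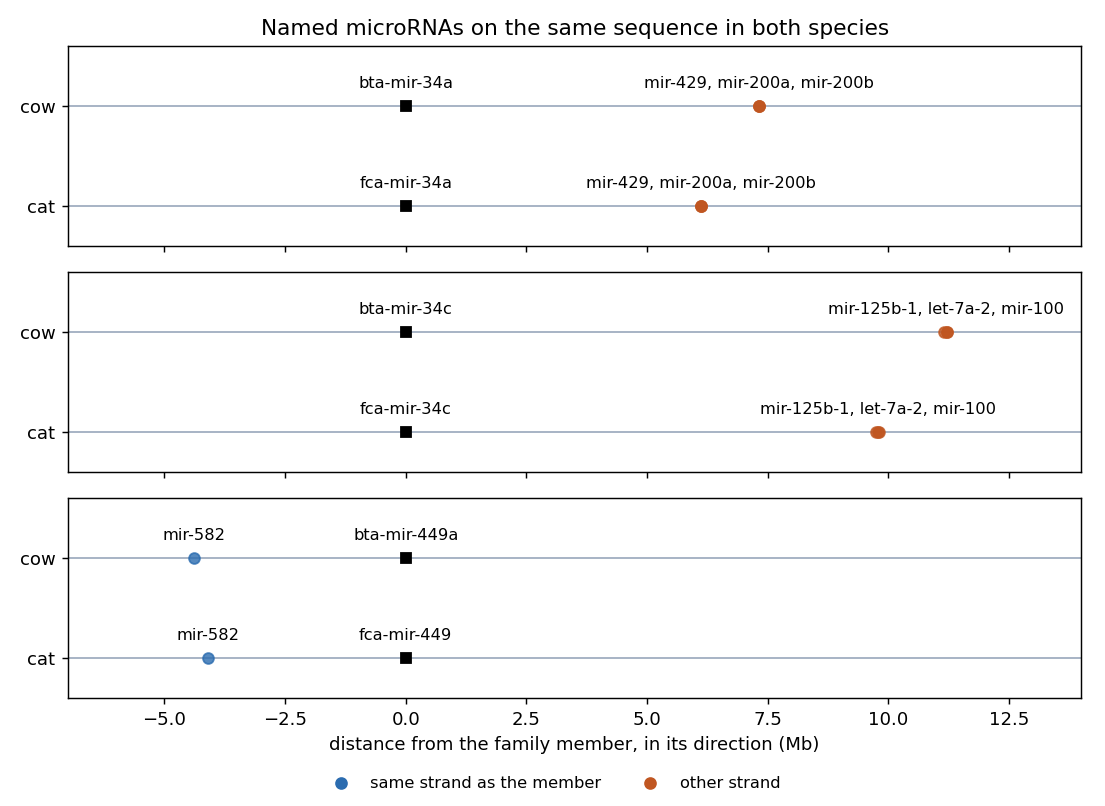
MicroRNAs with the same plain name within 14 Mb of mir-34a, mir-34c and mir-449 in cow and cat, with distance in Mb in the direction of the member on the horizontal axis and the member at 0 (black square). Circles are the landmarks, blue on the strand of the member and orange on the other strand. In each panel the circles shown lie on the same side and strand in both species. They lie at 7.32 and 6.11 Mb for mir-429, 11.16 and 9.74 Mb for mir-125b-1 and 4.38 and 4.09 Mb for mir-582. Landmarks beyond 14 Mb are not shown, among them mir-139 and mir-326, whose strand relative to mir-34c differed between the species. For mir-34c the side could not differ, as nothing was called upstream.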

How the data were processed

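The authors trimmed the reads with cutadapt (version 1.15 per the labels), aligned them with Bowtie, keeping reads with at most 10 genome positions, and predicted hairpins with miRWoods from the pooled libraries of each species. The deposited values are neither counts nor normalized signal. They are other numbers, the genomic start and end of each predicted precursor and product, counted from 1, and the score field is blank in every line. From these spans, members were selected by name, product positions were counted along the hairpin in the direction of its strand, and clusters were joined at gaps of at most 10 kb on either strand. All members were named, with their nearest predicted loci and, for the cow, the genes that hold or flank them in RefSeq. The members and lists were chosen with earlier results of these data known. No test was run, since each species has 1 call set. Names of 4 bovine members matched 1 RefSeq gene each. Shares of loci with both arms carry 95% exact intervals. Cluster and position code was tested on simulated loci. Python 3.11.15, scipy 1.17.1 and matplotlib 3.10.9 were used. Tissues and animals were taken from the labels and the methods of the study.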

Additional observations from a re-analysis of the deposited data

How the results depend on the processing

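The number of members, the members in clusters and the members with both arms kept their values under all 14 alternatives tried: cluster distances of 1, 5 and 50 kb, the same strand alone, the distance between starts, antisense names counted and products of 20 to 24 nt alone. None of these settings could have changed them, so the unchanged values are no support. No antisense name occurred and all member products had 20 to 23 nt. Gaps from a member to its nearest locus were at most 636 nt or at least 103053 nt. The hairpins of each clustered pair share a strand, and the pairs span 762 nt in the cow and 184 nt in the cat. Measured between the facing mature products, the gap between bta-mir-34b and bta-mir-34c was 641 nt and that between the feline mir-449 hairpins 60 nt. Over loci with a family number alone, a choice made after the data were seen, the share with both arms was 81.5% in cow and 81.6% in cat. Bases 2 to 7 and 3 to 8 lie within bases 2 to 8, so all 3 human 5p products had to share these shorter seeds too. Seeds of the bovine and feline products, and loop lengths from RefSeq hairpins, were not run, as no such sequences were used here. No paired analysis was possible because the deposited call sets hold no value per library, and for the same reason no replicate could be left out.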
